A study of Rattus norvegicus with 8 samples.

Results

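The genes described here are 9 transcripts that fatty-acid-sensing nuclear receptors are known to switch on: Pdk4, Ucp2, Ucp3, Angptl4, Acot1, Acot2, Plin2, Plin5 and Vnn1. They were taken by name, as every probe set on the array whose annotation gave exactly 1 gene symbol equal to a listed gene. Each gene had 1 such probe set, so 9 probe sets of 28826 are described, and 9 genes of the 14497 that could be named. The arrays measured total RNA from the left ventricle of female rats whose hearts, in late pregnancy according to the title of the series, had gone through ischemia, the stopping of blood flow, and then reperfusion. For 5 samples (ILPD) the treatment was given at reperfusion, and for 3 samples (placebo) the vehicle. The treatment was a single bolus of 5 mg/kg. The series title names Intralipid, an intravenous emulsion of plant-oil triglycerides; the design text writes ITLD where the sample labels write ILPD, and both are taken here to mean that emulsion. Both groups had the same injury, and no strain, age, day of pregnancy or reperfusion time is given in the sources used here. The comparison asks whether that bolus at reperfusion went with a different level of fat-responsive transcripts.

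Peroxisome proliferator-activated receptors (PPARs) are nuclear receptors that bind fatty acids and their derivatives. Paired with a retinoid X receptor, they bind DNA at a direct repeat of the hexamer AGGTCA and raise transcription of genes for taking up, storing, exporting and burning fat. In heart muscle PPAR-alpha and PPAR-delta are best known for the fatty acid oxidation program, and several targets, Pdk4, Ucp3 and Angptl4 among them, are classic readouts of fasting or raised circulating fatty acids. Each deposited value is a log2 expression value of a probe set, so a difference of 1 is a 2-fold difference. Probe sets differ in how brightly they hybridise, so levels are compared between arrays and never between genes.

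Of the PPAR targets, 1 fell and 0 rose in the ILPD samples. The gene that fell was Vnn1, by 0.34 on the log2 scale. Angptl4 and Ucp3 had the highest positive differences, 0.95 and 0.72, but missed the test, and their arrays were widely spread within each group. Plin2, Plin5 and Ucp2, at -0.03, 0.02 and -0.04, lay near 0. A probe set was called when its adjusted p in limma, taken over all 28826 probe sets by the Benjamini-Hochberg method, was under 0.05. By that rule 2.81% of all probe sets were called, 0.857% as lower in ILPD and 1.96% as higher, so 1 call among 9 is not read as a result about these genes. At an unadjusted p under 0.05, 4 of the 9 and 5271 of all 28826 probe sets passed. The labels number the samples without saying that each is a separate animal, so every p-value measures the spread between these samples, part of which may be technical.

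RefSeq start-site windows on assembly GRCr8, 250 bases before to 50 bases after the annotated start, were matched by symbol for 8 of the 9 genes (9 windows, since Plin2 has 2), and not for Vnn1. The letters AGGTCA were searched on both strands. The windows of Ucp3 and Plin5 held them, and the other 7 did not. Those of Ucp3 and Plin5 are printed because they hold the hexamer, and that of Angptl4 because its values over the arrays lay closest to those of Ucp3 among the PPAR targets. All 3 run 5′ to 3′ on the gene's strand, with AGGTCA in capitals. The Ucp3 window is chr1:164227660-164227959 (plus strand), the Plin5 window chr9:1033235-1033534 (minus strand) and the Angptl4 window chr7:15258632-15258931 (minus strand).
Ucp3: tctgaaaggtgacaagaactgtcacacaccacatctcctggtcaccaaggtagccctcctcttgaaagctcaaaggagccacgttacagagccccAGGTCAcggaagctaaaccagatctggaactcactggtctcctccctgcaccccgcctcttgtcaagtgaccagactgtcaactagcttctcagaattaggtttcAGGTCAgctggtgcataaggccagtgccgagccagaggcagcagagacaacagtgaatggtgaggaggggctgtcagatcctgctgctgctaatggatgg
Plin5: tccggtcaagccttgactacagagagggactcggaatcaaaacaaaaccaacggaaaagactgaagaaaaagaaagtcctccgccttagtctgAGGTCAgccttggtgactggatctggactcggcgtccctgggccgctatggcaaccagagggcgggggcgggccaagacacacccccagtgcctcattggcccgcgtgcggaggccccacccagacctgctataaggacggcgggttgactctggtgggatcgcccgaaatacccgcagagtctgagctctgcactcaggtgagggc
Angptl4: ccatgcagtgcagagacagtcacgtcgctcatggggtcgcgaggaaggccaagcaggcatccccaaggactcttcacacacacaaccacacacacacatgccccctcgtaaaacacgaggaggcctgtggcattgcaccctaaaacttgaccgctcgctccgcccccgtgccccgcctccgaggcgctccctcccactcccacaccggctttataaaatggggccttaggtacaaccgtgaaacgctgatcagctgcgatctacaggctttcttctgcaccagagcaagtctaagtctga
Ucp3 held AGGTCA at 2 places, starting 155 and 50 bases before the start site, and Plin5 at 1 place, starting 157 bases before it. Among all 33469 windows of this length 16.2% held the hexamer and 1.81% held it at 2 or more places. The full direct repeat AGGTCANAGGTCA, which contains the hexamer, was in none of the 9 windows and in 0.0538% of all, and the looser AGGNCANAGGNCA was in none of the 9 and in 0.415% of all. These letter matches describe the windows only. Many response elements lie outside such windows.

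**Figure D1:**
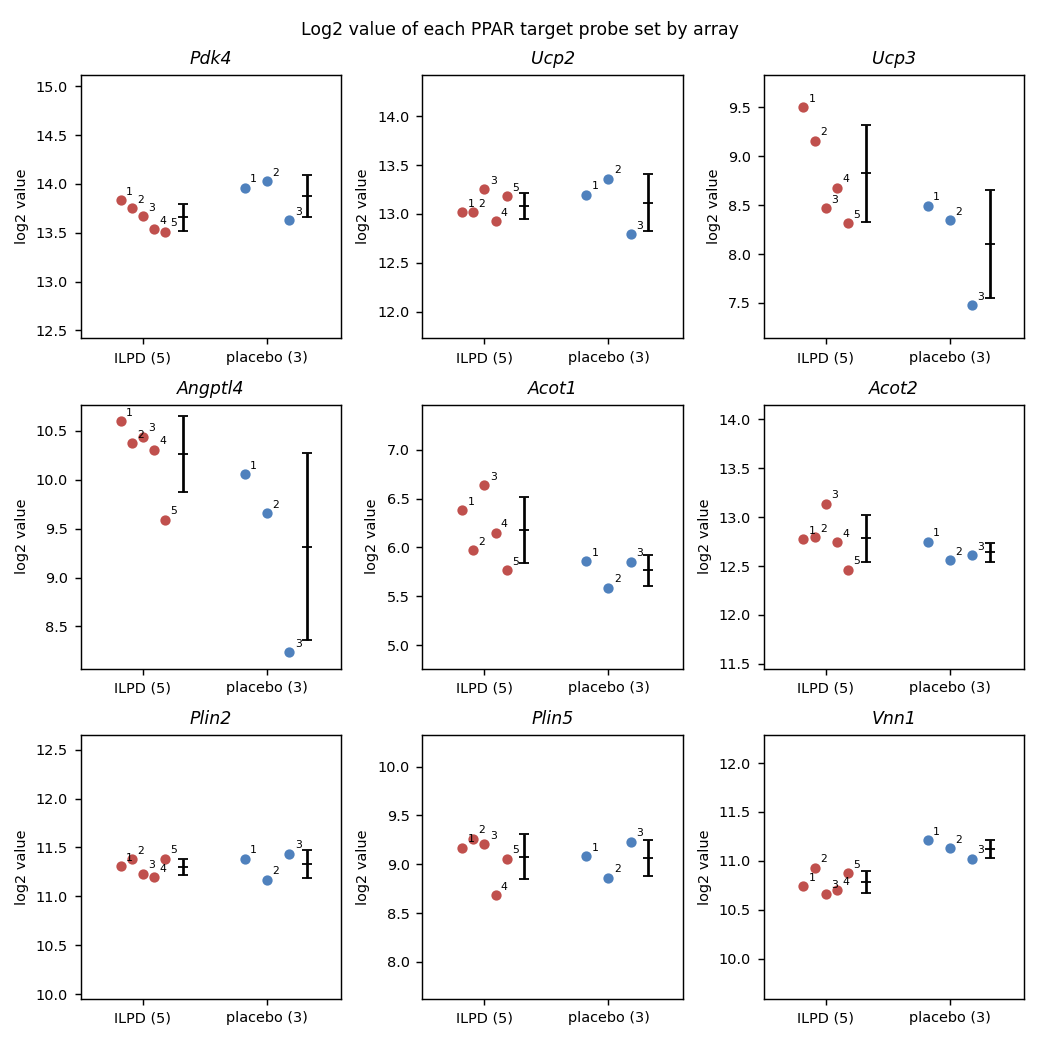
Log2 value (vertical axis, the same span in each panel) of each PPAR target in the 5 ILPD arrays (red, left) and 3 placebo arrays (blue, right), numbered as in the labels, with mean ± SD in black. Only in Vnn1 do the groups stand clear of each other, and placebo array 3 lies far below the rest for Angptl4 (8.24) and Ucp3 (7.47).

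The arrays were closely correlated, but the groups differed slightly in level. Every ILPD array had a higher median than every placebo array, 7.16 to 7.20 against 7.08 to 7.14. Over all probe sets the correlation was 0.991 to 0.995 within a group and 0.989 to 0.993 between groups. The median difference changed with brightness, from 0.06 for probe sets averaging 7 to 8 to -0.15 for those averaging 12 to 13. Precision is bounded by there being 5 and 3 arrays. All 8 markers of ventricular heart muscle in the list used here, Myh6 and Tnnt2 among them, were bright on these arrays, with a mean of at least 12.44 in each group. Their differences were negative in 8 of 8 (median -0.12, 0 called, 2 at an unadjusted p under 0.05), with a mean log2 value of 13.57 to 13.75 over the ILPD arrays and 13.73 to 13.78 over the placebo arrays. This sign turned with the scaling: 5 of 8 were positive after a further quantile normalization (median 0.02) and 8 of 8 after cyclic loess (0.08). The part of this shift in the negative differences of Vnn1, Pdk4 and other genes below was not tested. In bulk tissue, fewer cells of a type and less RNA per cell cannot be told apart. All 8 white blood cell markers had a positive difference (median 0.28, 0 called, 3 at an unadjusted p under 0.05 in limma). All 8 stayed positive after quantile (median 0.30) and cyclic loess normalization (0.32) and without placebo array 3 (0.40). Their mean log2 value ran from 8.26 to 8.83 over the ILPD arrays and from 7.97 to 8.30 over the placebo arrays. All 8 adipocyte markers had a positive difference too (median 0.14, 0 called). Their mean was 7.49 to 7.68 over the ILPD arrays and 7.42 to 7.51 over the placebo arrays. After either further normalization 7 of 8 stayed positive, with a median of 0.06 after quantile and 0.08 after cyclic loess. Adipoq, Cidec and Lep averaged between 6 and 7 in both groups, where all probe sets had a median difference of 0.04. Endothelial markers were positive in 4 of 5 (2 of 5 without placebo array 3), and fibroblast markers were negative in 6 of 6 (5 of 6 after either further normalization), with 0 called in either list. The part that cell composition plays in the values below was not tested.

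Pdk4 encodes the kinase that shuts off pyruvate dehydrogenase, and so glucose oxidation, when fat is burned. Its values in ILPD arrays 1 to 5 were 13.83, 13.75, 13.67, 13.54 and 13.51, against 13.96, 14.03 and 13.63 in placebo arrays 1 to 3. All 5 ILPD arrays lay below the placebo mean, but placebo array 3 lay among them, so the groups overlapped. The mean was 13.66 ± 0.14 in ILPD (SD, n = 5) and 13.87 ± 0.22 in placebo (SD, n = 3), a difference of -0.21 (95% interval -0.45 to 0.02, limma adjusted p = 0.322). Without placebo array 3 it was -0.34 (adjusted p = 0.140), without placebo array 2 it was -0.14 (adjusted p = 0.650), and after a further quantile normalization it was -0.05 and after cyclic loess normalization it was -0.01. Probe sets as bright as Pdk4, those averaging 13 to 14, had a median difference of -0.14.

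Angptl4 encodes a secreted inhibitor of lipoprotein lipase, the enzyme that frees fatty acids from circulating triglyceride at the vessel wall. It read 10.60, 10.37, 10.44, 10.31 and 9.59 in ILPD arrays 1 to 5, against 10.05, 9.66 and 8.24 in placebo arrays 1 to 3. Of the ILPD arrays 4 lay above all placebo arrays, and ILPD array 5 lay between placebo arrays. The means were 10.26 ± 0.39 in ILPD and 9.32 ± 0.96 in placebo, 1.93-fold apart, with a 95% interval from 1.10-fold to 3.39-fold. The difference of 0.95 (SE 0.36) did not pass (limma adjusted p = 0.206), although it was larger than that of 99.8% of probe sets in size. Its SD over the 8 arrays exceeded that of 99.9% of probe sets. Without placebo array 3 the difference was 0.41 (95% interval -0.15 to 0.96, adjusted p = 0.435), and without placebo array 1 it was 1.32 (adjusted p = 0.134).

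The uncoupling proteins are carriers of the inner mitochondrial membrane. Ucp3, found mainly in muscle and tied to fatty acid handling there, read 9.50, 9.16, 8.47, 8.68 and 8.32 in ILPD arrays 1 to 5, against 8.49, 8.34 and 7.47 in placebo arrays 1 to 3. All 5 ILPD arrays lay above the placebo mean and 3 lay above every placebo array. Neither Ucp3 nor any other PPAR target was higher in ILPD without overlap, a pattern seen for 7.95% of all probe sets. The difference was 0.72 (SE 0.29, 1.65-fold, 95% interval 1.05-fold to 2.60-fold) and did not pass (limma adjusted p = 0.232). Without placebo array 3 it was 0.41 (adjusted p = 0.511). Ucp2, the more broadly expressed relative, read 13.02, 13.02, 13.25, 12.92 and 13.18 in ILPD arrays 1 to 5 and 13.20, 13.36 and 12.79 in placebo arrays 1 to 3. Here the ILPD arrays lay inside the placebo range. The difference was -0.04 (95% interval -0.31 to 0.24, limma adjusted p = 0.915), and its sign changed under both further normalizations. Ucp2 and Ucp3 sit side by side on rat chromosome 1 with 0 annotated genes between them. Placebo array 3 was the lowest of all 8 arrays for both genes. At the high end they differed, with ILPD arrays 1 and 2 the highest for Ucp3 and placebo array 2 the highest for Ucp2.

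**Figure D2:**
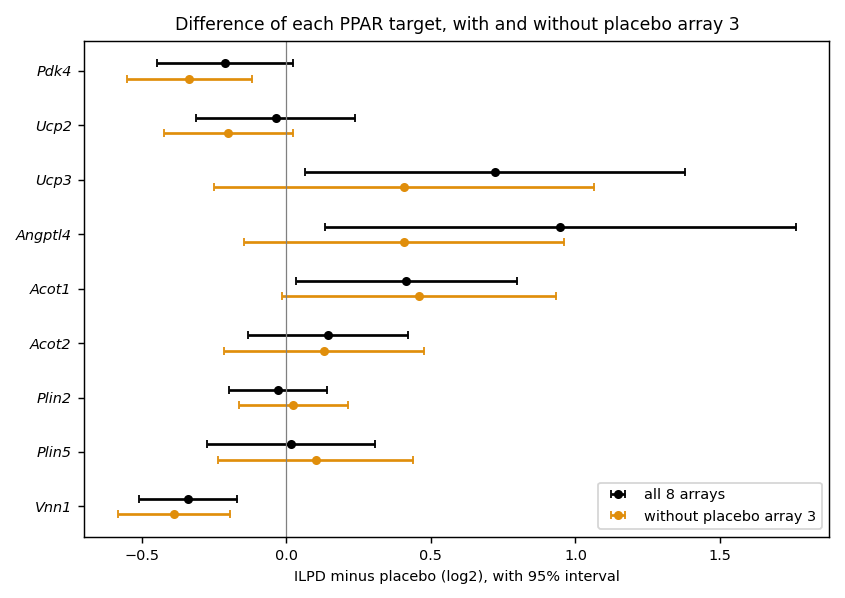
ILPD minus placebo (log2, horizontal axis) with its 95% interval for each PPAR target, from all 8 arrays (black) and without placebo array 3 (orange). The values for Angptl4 and Ucp3 drop to 0.41 each without that array, and Vnn1 stays below 0 in both.

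Acot1 and Acot2 encode thioesterases that split fatty acyl-CoA into free fatty acid and coenzyme A, Acot1 in the cytosol and Acot2 in mitochondria. Acot1 read 6.38, 5.97, 6.63, 6.15 and 5.77 in ILPD arrays 1 to 5, against 5.86, 5.59 and 5.85 in placebo arrays 1 to 3. Of the ILPD arrays 4 lay above all placebo arrays, and array 5 lay between them. The difference was 0.41 (SE 0.17, 95% interval 0.03 to 0.80), which did not pass (limma adjusted p = 0.236). Its probe set was among the dimmest 40% of the array. Acot2 read 12.77, 12.80, 13.14, 12.74 and 12.46 in ILPD arrays 1 to 5 and 12.75, 12.56 and 12.61 in placebo arrays 1 to 3. Its ILPD arrays lay on both sides of the placebo range. The difference of 0.14 (95% interval -0.13 to 0.42, limma adjusted p = 0.599) did not pass. It was 0.055 without ILPD array 3 (adjusted p = 0.831) and 0.22 without ILPD array 5 (adjusted p = 0.283). After a further quantile normalization it was 0.29 (adjusted p = 0.336), and after cyclic loess 0.31 (95% interval 0.0087 to 0.62, adjusted p = 0.309). The genes are neighbours on rat chromosome 6 with 0 annotated genes between them, and they are close relatives in sequence, so that probes of either may bind transcripts of both. ILPD array 3 was the highest and ILPD array 5 the lowest of the ILPD arrays for both. Among the PPAR targets, Acot2 lay nearest to Acot1, at a root mean square distance of 0.18 between mean-centred values over the 8 arrays, against 0.33 for the next, Plin5.

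Plin2 and Plin5 encode coat proteins of lipid droplets, the stores of triglyceride inside a cell; Plin5 is found mostly in tissues that burn fat, and ties droplets to mitochondria. Plin2 read 11.31, 11.38, 11.23, 11.19 and 11.38 in ILPD arrays 1 to 5 and 11.38, 11.17 and 11.43 in placebo arrays 1 to 3. All 5 ILPD arrays lay inside the placebo range, which spanned 0.27. The difference was -0.03 with a 95% interval from -0.20 to 0.14 (limma adjusted p = 0.888), which as a fold is 0.872 to 1.10. Plin5 read 9.17, 9.26, 9.20, 8.68 and 9.06 in ILPD arrays 1 to 5 and 9.08, 8.86 and 9.23 in placebo arrays 1 to 3. Here all 3 placebo arrays lay inside the ILPD range, with ILPD array 4 the lowest of all arrays and ILPD array 2 the highest. The Plin5 difference was 0.02 (95% interval -0.28 to 0.31, adjusted p = 0.967). A rise of Plin2 above 1.10-fold or of Plin5 above 1.24-fold would lie outside these intervals, which hold for the values as deposited. The upper limit for Plin2 was 0.14 on the log2 scale as deposited, and 0.22 after cyclic loess or quantile normalization. That for Plin5 was 0.31 as deposited and 0.44 without placebo array 3.

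Vnn1 encodes pantetheinase, an enzyme on the cell surface that releases vitamin B5 and cysteamine, and in liver it is a well-known target of PPAR-alpha. It read 10.74, 10.93, 10.66, 10.70 and 10.87 in ILPD arrays 1 to 5, against 11.21, 11.13 and 11.02 in placebo arrays 1 to 3. All 5 ILPD arrays lay below all 3 placebo arrays. Groups without overlap in this direction were found for 4.42% of all probe sets, and in either direction for 12.4%. The mean was 10.78 ± 0.11 in ILPD (SD, n = 5) and 11.12 ± 0.10 in placebo (SD, n = 3). Vnn1 thus fell by 0.34 (SE 0.08, 95% interval -0.51 to -0.17, limma adjusted p = 0.0474), to 0.790 of its placebo level. The call lay close to the threshold and was lost in 10 of 14 alternatives, without ILPD array 1, 3 or 4 or any single placebo array among them, with an adjusted p from 0.0402 to 0.160 and a difference from -0.39 to -0.23. Probe sets averaging 10 to 11, as Vnn1 did, had a median difference of -0.10, and after cyclic loess normalization Vnn1 differed by -0.23 (adjusted p = 0.119). Its relative Vnn3 differed by 0.08 (limma adjusted p = 0.516). The Vnn3 probe set was dim, averaging 6.13 in ILPD and 6.05 in placebo, below the median of every array.

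**Figure D3:**
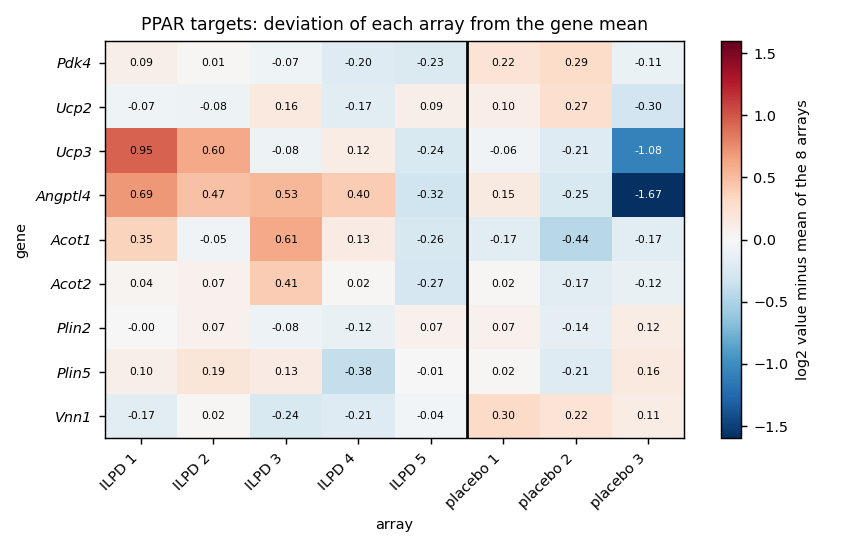
Each PPAR target (rows) in each array (columns, ILPD left of the line, placebo right), coloured and labelled by its log2 value minus the gene's mean over the 8 arrays. Placebo array 3 is the low extreme of Angptl4 (-1.67), Ucp3 (-1.08) and Ucp2 (-0.30), and ILPD array 3 is the high extreme of Acot1 (0.61) and Acot2 (0.41).

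Several PPAR targets were lowest in the same array. Placebo array 3 was the lowest of all 8 arrays for Ucp2, Ucp3 and Angptl4, which are 3 of 9 genes, against 9.97% of all probe sets. The same 3 genes lay at least 0.4 below the mean of placebo arrays 1 and 2 in that array, at -0.49 for Ucp2, -0.94 for Ucp3 and -1.62 for Angptl4, whereas 1.03% of all probe sets did so. Among 86 further genes, of the pathway or family relatives of the PPAR targets, listed below, Fabp4, Cpt1a and Cyp4b1 did so too. Outside the pathway, so did S100a9 (-0.44), 1 of 8 white blood cell markers, Fn1 (-0.49), Fmo1 (-0.77) and Tnfsf10 (-0.92). The last 3 are named below for profiles near those of Ucp3 or Angptl4, as are Clec4e (-0.32) and Lyz2 (-0.30), which did not. The share over all probe sets is not matched for spread. The SD of Ucp3 and Angptl4 over the 8 arrays exceeded that of 99.6% and 99.9% of probe sets. The distance of 0.4 and the arrays singled out here were chosen after the values were seen. Plin2 and Plin5 were not low in placebo array 3, which was the highest placebo array for both. Within the ILPD group, array 5 was the lowest for Pdk4, Ucp3, Angptl4, Acot1 and Acot2, which are 5 of 9 genes, against 16.6% of all probe sets. For 4 of the 9 genes (Pdk4, Ucp2, Angptl4 and Plin2) the range over the 5 ILPD arrays was narrower than that over the 3 placebo arrays, as it was for 30.1% of all probe sets. What sets these arrays apart was not tested, and the labels give no batch.

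The profiles of the 3 genes with an SD of at least 0.3 over the 8 arrays were set against all named genes, as the root mean square distance between mean-centred log2 values over those arrays. Nearest to Ucp3 were Clec4e, a lectin receptor of macrophages (distance 0.23), Fn1, the matrix protein fibronectin (0.24), and Lyz2, a lysozyme of macrophages and granulocytes (0.25). Clec4e read 8.94, 8.78, 7.89, 8.43 and 7.71 in ILPD arrays 1 to 5, against 7.77, 7.38 and 7.25 in placebo arrays 1 to 3. Like Ucp3, it was highest in ILPD arrays 1 and 2 and lowest in placebo array 3. Its difference of 0.88 did not pass (limma adjusted p = 0.116), nor did those of Fn1 (0.61, 0.129) and Lyz2 (0.65, 0.148). Angptl4 was closest to Ucp3 (0.34), then to Fmo1, a flavin monooxygenase (0.37), and Tnfsf10, the death ligand TRAIL (0.39). Acot1 was closest to Fam83b (0.13), Spink1l and Mybphl (0.14 each), all higher in ILPD arrays 1 and 3 than in any placebo array. These distances describe 8 arrays and carry no test.

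**Figure D4:**
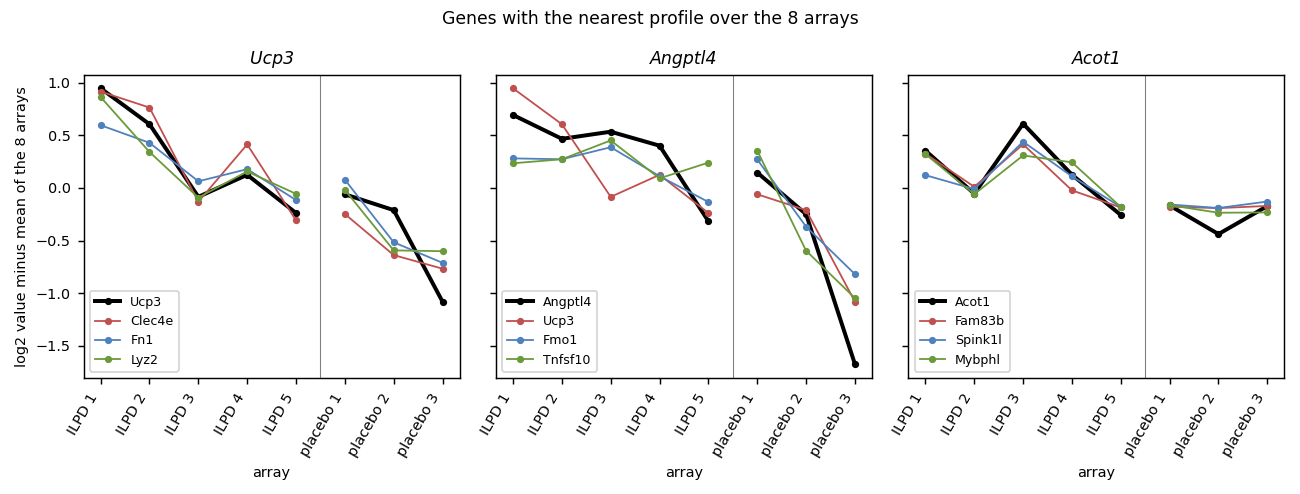
Log2 value minus the gene's mean over the 8 arrays (vertical axis) for Ucp3, Angptl4 and Acot1 (black) and the 3 genes nearest to each (colours), by array, with ILPD left of the vertical line and placebo right. Lines only join the points of a gene, since arrays of a group have no order. Ucp3, Clec4e, Fn1 and Lyz2 are all highest in ILPD array 1.

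Other genes of the PPAR pathway were called at a share near that of all probe sets. Of 99 genes in 6 lists, the last holding family relatives of the PPAR targets, 86 had a named probe set. Of these 1 rose and 2 fell, which is 3.49% against 2.81% of all probe sets, and is not read as a result. At an unadjusted p under 0.05 in limma, 23 of the 86 and 5271 of all 28826 probe sets passed. The groups did not overlap for 18 of the 86, against 12.4% of all probe sets. These shares are not matched for brightness. Without placebo array 1 or without placebo array 3 there were 0 calls among the 86, and without placebo array 2 or ILPD array 2 there was 1. Their median difference was -0.08, against 0.02 for all probe sets, and it was -0.01 after a further quantile normalization and 0.01 after cyclic loess.

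Among the receptors, their partners and coregulators, 1 of 15 fell and 0 rose. That gene was Ncoa1, a coactivator of nuclear receptors (probe set 10889113), with a fall of 0.31 (difference -0.31, SE 0.07, adjusted p in limma 0.0424). It read 9.32, 9.49, 9.42, 9.50 and 9.61 in ILPD arrays 1 to 5, against 9.76, 9.77 and 9.81 in placebo arrays 1 to 3. All ILPD arrays lay below all placebo arrays. The call was lost in 10 of 14 alternatives, without any single placebo array and without ILPD array 2, 3 or 4 among them, with an adjusted p of up to 0.126. Ppara, the receptor itself, had the lowest difference of the list, -0.38 (95% interval -0.67 to -0.09, adjusted p = 0.153), with 10.13 ± 0.24 in ILPD and 10.51 ± 0.13 in placebo. Pparg had the highest, 0.07 (adjusted p = 0.739). Differences were negative for 14 of the 15 genes, 13 after quantile normalization and 11 after cyclic loess. The median was -0.15 as deposited, -0.23 without placebo array 3, and -0.07 and -0.05 after the 2 normalizations.

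In the list of lipid uptake, binding and activation, 1 of 12 rose and 0 fell. Fabp4, a fatty acid binding protein of capillary endothelium, adipocytes and macrophages (probe set 10814286), was higher by 0.82 (SE 0.14), with an adjusted p in limma of 0.0173. It read 11.33, 11.12, 11.37, 11.28 and 10.93 in ILPD arrays 1 to 5, against 10.33, 10.71 and 10.11 in placebo arrays 1 to 3. The groups did not overlap, and placebo array 3 was again the lowest. The call was lost without placebo array 1 (0.79, adjusted p = 0.0626) and without placebo array 3 (0.68, adjusted p = 0.0689). Endothelial markers in the list used here differed by -0.16 to 0.32 with 0 of 5 called, and adipocyte and white blood cell markers are given above. Vldlr, a receptor for triglyceride-rich particles, had the lowest difference, -0.28 (adjusted p = 0.144), and passed without ILPD array 5 (-0.33, adjusted p = 0.0472).

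None of the 19 mitochondrial oxidation genes passed limma's test, where 4 had an unadjusted p under 0.05. They ran from -0.20 for Hadha, the alpha subunit of the trifunctional protein (adjusted p = 0.147), to 0.47 for Cpt1a, the liver-type carnitine palmitoyltransferase (adjusted p = 0.137). Cpt1a averaged 10.85 ± 0.25 in ILPD and 10.38 ± 0.25 in placebo, with placebo array 3 the lowest array. Most of the 19 had a small negative difference, 17 as deposited, but 10 did after quantile normalization and 6 after cyclic loess. Of 11 peroxisomal and omega-hydroxylation genes 0 passed (4 at an unadjusted p under 0.05), from -0.21 for Crat, carnitine acetyltransferase (adjusted p = 0.110), to 0.46 for Cyp4b1, a cytochrome P450 of the fatty acid hydroxylase family (adjusted p = 0.0723). Cyp4b1 read 10.32, 10.31, 10.48, 10.18 and 10.07 in ILPD arrays 1 to 5, against 9.97, 9.95 and 9.52 in placebo arrays 1 to 3, without overlap.

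Of 12 genes of the lipid droplet and of lipolysis 0 passed in limma, with 1 at an unadjusted p under 0.05. They ran from -0.24 for Fitm1, which helps droplets form (adjusted p = 0.304), to 0.31 for Mgll, monoacylglycerol lipase (adjusted p = 0.0855). Among 18 relatives of the PPAR targets 1 fell and 0 rose. Pdk2, a pyruvate dehydrogenase kinase and relative of Pdk4 (probe set 10746469), differed by -0.30 (SE 0.06), with an adjusted p in limma of 0.0329. It read 12.84, 12.87, 12.86, 12.67 and 12.87 in ILPD arrays 1 to 5, against 13.12, 13.14 and 13.11 in placebo arrays 1 to 3. The groups did not overlap and the placebo arrays lay within 0.03 of each other. The call was lost in 8 of 14 alternatives, without any single placebo array or ILPD array 2 or 3 and after quantile (-0.17) and cyclic loess normalization (-0.12, adjusted p = 0.314) among them. The other differences in that list ran from -0.36 for Acot13, a thioesterase (adjusted p = 0.157), to 0.33 for Pdp2, a pyruvate dehydrogenase phosphatase (adjusted p = 0.270).

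**Figure D5:**
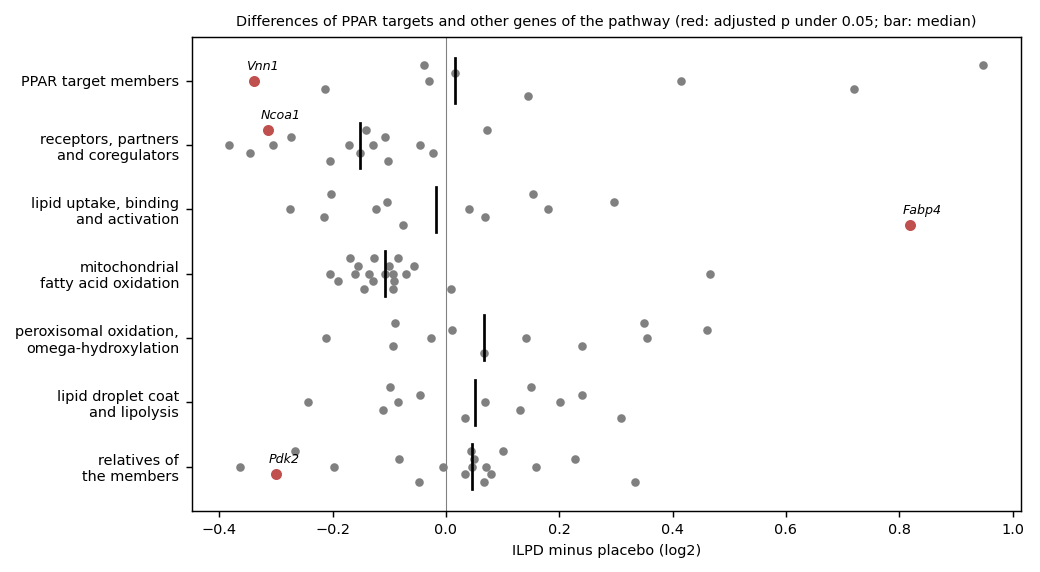
ILPD minus placebo (log2, horizontal axis) of the 9 PPAR targets and of the genes of 6 lists of the pathway and of family relatives. Each point is 1 gene, with list medians as black bars and genes past an adjusted p of 0.05 in red. The called genes are Vnn1 (-0.34), Ncoa1 (-0.31), Fabp4 (0.82) and Pdk2 (-0.30), and list medians lie between -0.15 and 0.07.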

How the data were processed

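Total RNA of 8 left ventricle samples was hybridised to Affymetrix arrays, per the labels' protocols. The values the authors deposited are log2 expression values per probe set, a scale read from their range (4.77 to 14.77); details of their summary and normalization were not given in the sources used here. R 2.14.2 appears in the submitters' processing notes. No background or detection values were used. Gene symbols came from the platform annotation, updated by gene ID through RefSeq (GRCr8): 1 symbol was given for 15209 of 28826 probe sets (15178 found in RefSeq), several for 306, and none here for 13311. Sequences are from RefSeq.

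ILPD was compared with placebo in limma 3.58.1 (R 4.3.3, lmFit and eBayes, no covariate, pseudocount or filter), two-sided, adjusted over all probe sets. What size of change this comparison would call in probe sets as widely spread as those of Angptl4 and Ucp3 was not tested. Same-numbered arrays did not deviate together (correlations 0.22, -0.06 and -0.10), so no pairing was used. The 14 alternatives were an intensity trend with robust prior, quantile and cyclic loess normalization, a filter on the dimmest 40%, array weights, a replicate block and leaving out each array. Outside the 9 PPAR targets the brightest probe set stood for a gene; named were called genes and the highest and lowest of each list, plus Vnn3 as a relative, and the 3 nearest profiles. The genes, lists and alternatives were chosen with earlier results of these data known.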

Additional observations from a re-analysis of the deposited data

Results flagged for a closer look

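In 4 of 23 genes tested, an ILPD array lay apart from the other ILPD arrays by more than Dixon's 95% limit for 5 samples. That limit is a gap of 0.71 of the range, which chance passes in about 1 of 20 groups. The genes share the same arrays and many were picked for their differences, so the count is not read against that rate. Angptl4 was 9.59 in ILPD array 5, against 10.31 to 10.60 in the other ILPD arrays, a gap of 0.711 of the range. Without that array its difference was 1.12 (limma adjusted p = 0.127). Fitm1 was 11.29 in ILPD array 5, against 10.83 to 10.93 in the others, and its difference without that array was -0.32 (adjusted p = 0.0863). Hadha was 12.74 in ILPD array 4, against 12.91 to 12.98, also a gap of 0.711 of the range. Its difference without that array was -0.16 (limma adjusted p = 0.209). Pdk2 was 12.67 in ILPD array 4, against 12.84 to 12.87, and without that array it differed by -0.26 (adjusted p = 0.0410).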

How the results depend on the processing

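Calls among the PPAR targets turned on the setting. As deposited 1 was called, 0 with an intensity trend, after quantile and after cyclic loess normalization, and from 0 to 1 when 1 array was left out. Of the other pathway genes and family relatives 3 were called as deposited, and from 0 to 4 when 1 array was left out. After quantile and after cyclic loess normalization 1 was called, Fabp4 in both. Over all probe sets 811 were called, 484 after quantile normalization (62.4% of them higher in ILPD), and from 172 to 975 when 1 array was left out, 172 being without placebo array 2. With the replicate number as a block, which the check of the pairing did not bear out, 459 probe sets were called in all, 2 PPAR targets (Ucp3 at 0.94, limma adjusted p = 0.00732, and Acot1 at 0.56, 0.0487) and 1 other pathway gene (Ehhadh), while Vnn1 and Fabp4 missed the threshold (0.102 and 0.0539). ILPD arrays 4 and 5 share their number with no placebo array, so in this block fit they add nothing to the differences. Array 5 was the lowest ILPD array for both Ucp3 and Acot1. For arrays that share a number, Ucp3 differed by 1.01, 0.82 and 0.995. Only ILPD array 1 correlated best with its own number. Signs turned for genes near 0: Ucp2 was 0.14 after cyclic loess, 0.10 after quantile normalization and from -0.20 to 0.085 without 1 array, above 0 without placebo array 1 or 2 or ILPD array 4. Plin2 was 0.094 after cyclic loess, 0.091 after quantile normalization and from -0.11 to 0.024 without 1 array, above 0 without placebo array 3 alone. Plin5 ran from -0.083 to 0.11 without 1 array, below 0 without placebo array 2 or ILPD array 1, 2 or 3. Angptl4, Ucp3, Acot1, Acot2, Pdk4 and Vnn1 kept their sign in all alternatives run (14, or 13 for Acot1, which the filter on dim probe sets left out). The causes of these changes were not tested. Averaging several probe sets was not needed, since each PPAR target had 1. The values were already logged, so the alternative for linear values was not run. The number of arrays limits precision, and without detection values no probe set can be said to lie at background.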
